A study of Mus musculus with 6 samples.

Results

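Transcripts of the aminoacyl-tRNA synthetases were followed in mouse primary neurons infected with an adeno-associated virus (AAV) for miR-9-3p. The members were chosen by name, with earlier results of these data known. They were 20 genes for cytosolic enzymes or their subunits and 16 genes for mitochondrial enzymes. All 36 were found among the 55416 gene rows of the deposited table. The neurons were wild type and came from brain. The 3 miR-9-3p AAV libraries came from neurons infected with a virus in which hsyn, the human synapsin promoter, drives miR-9-3p. The 3 control AAV libraries came from neurons that received a vector called scramble in the titles and treatment labels, but hsyn-mCherry in the extraction protocol and the design text. The age of the animals, the dose and the time after infection are not given. Nor is it stated that the 3 libraries per group are separate cultures, and p-values may therefore measure technical spread only. The level of the mature miR-9-3p was not measured here.

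A synthetase joins one amino acid to its tRNA, and the ribosome then reads the charged tRNA at the matching codon. Most amino acids have a cytosolic enzyme and a separate mitochondrial enzyme, both encoded in the nucleus. Kars (lysine) and Gars (glycine) are exceptions, since one gene supplies both compartments, and Qars has no mitochondrial counterpart because mitochondria charge glutamine tRNA by another route. Several cytosolic enzymes sit in the multisynthetase complex, held together by the scaffold proteins Aimp1, Aimp2 and Eef1e1, and the others are free. Many cytosolic synthetase genes are known targets of ATF4, the transcription factor of the integrated stress response, which binds the C/EBP-ATF response element (CARE). Variants in several of these genes cause inherited neuropathy or brain disease in humans.

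The mature mouse miR-9-3p, from RefSeq (GRCm38.p6), is shown because it is the agent delivered. Its capitals mark the seed, bases 2 to 8, which pairs with the 3′ UTR of targets. The same 22 bases are encoded at 3 loci, Mir9-1 on chromosome 3, Mir9-3 on chromosome 7 and Mir9-2 on chromosome 13.
miR-9-3p: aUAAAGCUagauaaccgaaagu

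The promoters that held a CARE core are shown because the motif they hold is the one bound by ATF4. RefSeq promoter windows (GRCm38.p6), from 250 bases before to 50 bases after the start, existed for 27 members, 13 cytosolic and 14 mitochondrial. The motif TGATGNAA, searched on both strands, was found for 5 of the 13 cytosolic genes and 0 of the 14 mitochondrial genes, against 4.51% of all 27025 genes with a window. The 5 were Aars, Gars, Iars, Tars and Yars, all of which were already listed as reported ATF4 targets. That list had 8 genes with a window, and 0 of the 5 other cytosolic genes held the motif. With only the forms TGATGCAA and TGATGAAA the same 5 genes matched, against 2.16% of all genes. A match describes the letters and is not evidence of binding. Each window below is read along the gene's own strand, with the matching letters in capitals; TTGCATCA and TTTCATCA are these motifs read from the other strand.
Gars, chr6:55037960-55037989, plus strand, match beginning 30 bases before the start: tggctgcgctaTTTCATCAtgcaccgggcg
Iars, chr13:49682126-49682155, plus strand, match beginning 7 bases after the start: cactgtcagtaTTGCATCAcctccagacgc
Tars, chr15:11399655-11399684, minus strand, match beginning 15 bases before the start: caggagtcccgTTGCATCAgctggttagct
Yars, chr4:129189895-129189924, plus strand, match beginning 3 bases after the start: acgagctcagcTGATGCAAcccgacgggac
Aars held the motif at 2 places, beginning 112 bases before and 9 bases after the start, and its whole window on chr8:111033592-111033891 (plus strand) is given.
Aars: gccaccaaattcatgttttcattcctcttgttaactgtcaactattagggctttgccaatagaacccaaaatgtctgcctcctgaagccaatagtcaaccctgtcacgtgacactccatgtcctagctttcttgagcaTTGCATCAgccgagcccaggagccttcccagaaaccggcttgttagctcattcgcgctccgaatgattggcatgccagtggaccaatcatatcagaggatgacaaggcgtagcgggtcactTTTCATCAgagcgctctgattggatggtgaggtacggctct

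Recovered depth was 16953251 to 17174916 reads in the miR-9-3p AAV libraries and 16001205 to 17936453 reads in the control AAV libraries. Neuronal markers were present in every library, with a summed level of 981 to 1298 FPKM (fragments per kilobase of gene, scaled to the library's total) in the miR-9-3p AAV libraries and 708 to 1178 FPKM in the control AAV libraries. All libraries also held transcripts of lung cells, which the labels do not name. The lung level of a library (the median of 7 alveolar type 2 markers), divided by the lowest library's, was 3.08, 1.05 and 1 in miR-9-3p AAV libraries 1 to 3, and 1.99, 3.78 and 11.0 in control AAV libraries 1 to 3. The airway gene Bpifa1, as a percentage of Scgb1a1, split the libraries into a set with miR-9-3p AAV library 1 and control AAV libraries 2 and 3, and a set with the other 3. The 8 astrocyte markers summed to between 256 and 277 FPKM in the miR-9-3p AAV libraries and between 359 and 392 FPKM in the control AAV libraries. Gfap and Acsbg1 carried most of that difference. Slc1a2 (38.2 to 45.0 FPKM in the miR-9-3p AAV libraries, 32.5 to 36.9 FPKM in the control AAV libraries) and Slc1a3 (79.2 to 85.7 FPKM in the miR-9-3p AAV libraries, 73.0 to 77.3 FPKM in the control AAV libraries) went the other way. The 7 oligodendrocyte-lineage markers summed to between 180 and 274 FPKM in the miR-9-3p AAV libraries and between 281 and 445 FPKM in the control AAV libraries. Olig1 and Olig2 carried most of that difference too, while Pdgfra had 21.5 to 23.9 FPKM in the miR-9-3p AAV libraries and 11.4 to 13.9 FPKM in the control AAV libraries, and Cspg4 and Mog were also higher in every miR-9-3p AAV library. By limma, 1 of 9 neuronal markers was called higher and 0 lower. Of the astrocyte markers, 2 were called lower and 0 higher, and 1 oligodendrocyte-lineage marker was called lower and 1 higher. Of 7 microglia and macrophage markers, 4 were below 1 FPKM in every library. The 6 endothelial and mural markers summed to between 15.6 and 49.3 FPKM in the miR-9-3p AAV libraries and between 46.0 and 183.4 FPKM in the control AAV libraries. For the 4 blood markers the sums were 118.7 to 280.9 FPKM and 153.0 to 955.0 FPKM. Like the lung level, all these markers were highest in control AAV library 3. The lung level may thus also follow these cells. Synthetases are expressed in neurons, glia and lung cells alike. The part of other cells in the results was not tested, except where lung level was entered in the fit. In bulk libraries, fewer cells of a type and less RNA per cell cannot be told apart.

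Most cytosolic synthetase transcripts had slightly lower mean levels in the miR-9-3p AAV libraries, by differences that did not pass the test, and the mitochondrial ones did not share a direction. The log2 fold change was below 0 for 18 of 20 cytosolic genes, with a median of -0.23 (range -0.39 to 0.03), and for 8 of 16 mitochondrial genes, with a median of -0.01 (range -0.28 to 0.52). Over all 14229 tested genes the median was -0.02 and 52.7% were below 0. These differences are on the scale log2(FPKM + 1), with miR-9-3p AAV minus control AAV. With limma and Benjamini-Hochberg adjustment over all tested genes, 0 of the 36 members passed an adjusted p of 0.05 in either direction. Of all tested genes, 3.89% were called higher and 2.4% lower. At an unadjusted p under 0.05, 5 cytosolic genes were lower (Nars, Iars, Sars, Gars and Tars) and 0 higher, and 1 mitochondrial gene was lower (Iars2) and 2 higher (Mars2 and Ears2). The share of all genes at that p was 12.8% lower and 14% higher. Limma-voom on recovered reads called 1 member, Nars, lower and 0 higher. It called 425 lower and 541 higher among all 14097 genes in that fit.

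In 6 of 20 cytosolic genes every miR-9-3p AAV library lay below every control AAV library (Gars, Iars, Nars, Rars, Sars and Tars), and in 0 of 20 above. Of all tested genes, 16.7% were separated in the lower direction and 18.2% in the higher one. Among the mitochondrial genes 1 was separated lower (Iars2) and 3 higher (Ears2, Mars2 and Pars2). The cytosolic share lower, 6 of 20, was above the background share, and the mitochondrial share higher, 3 of 16, was near it. Because the members were chosen with earlier results known, these shares are descriptions only. Neither they nor the contrast between the compartments was tested.

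**Figure D1:**
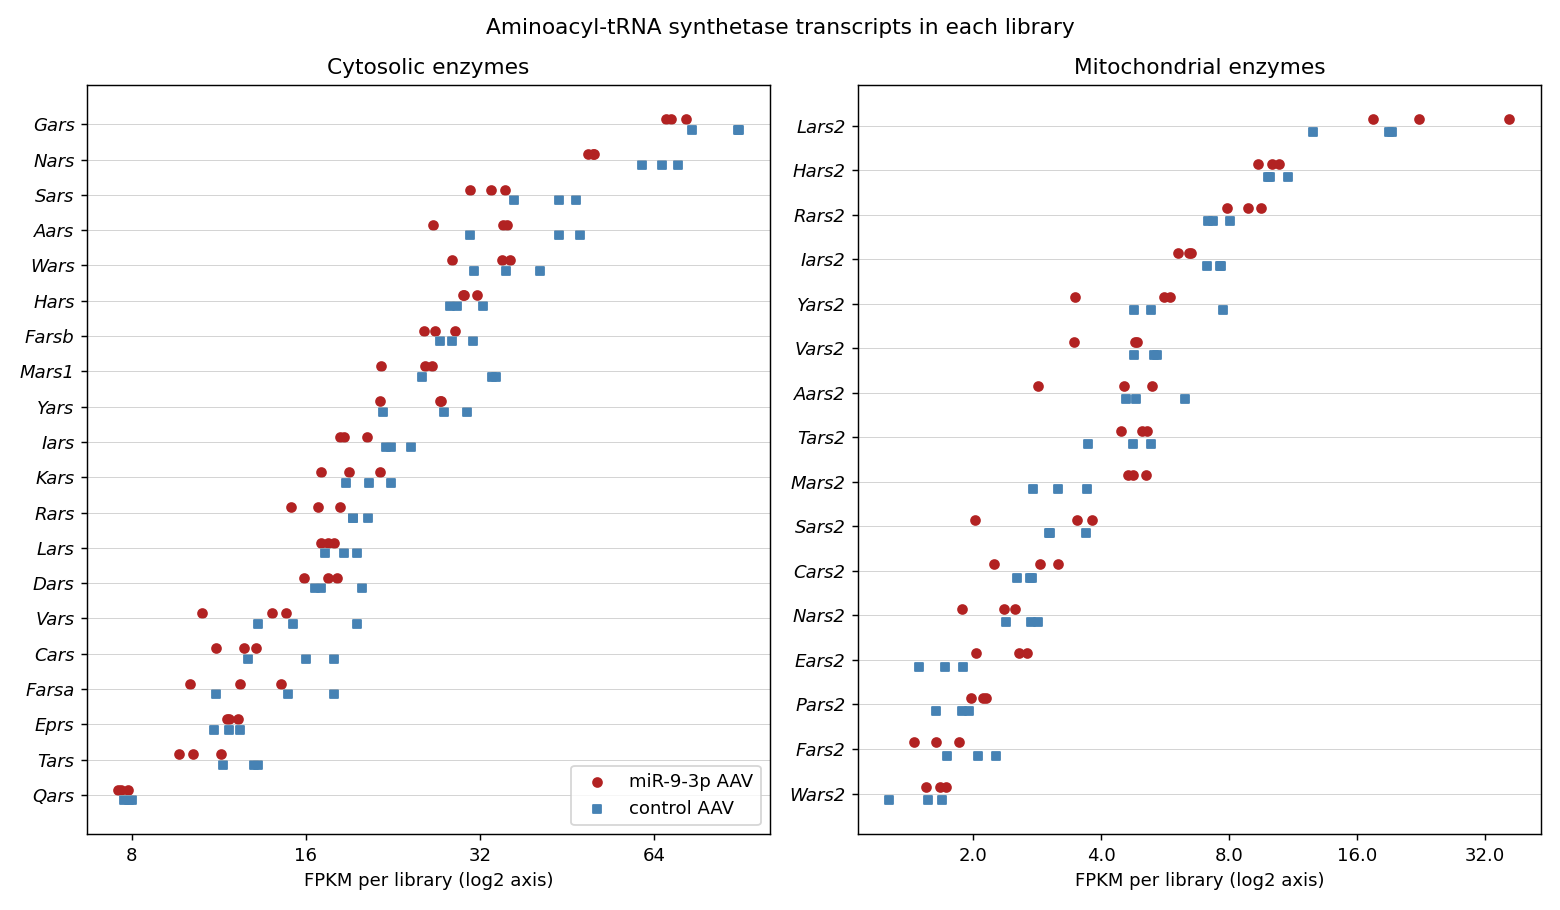
FPKM of each synthetase transcript in each library on a log2 axis, cytosolic genes on the left and mitochondrial genes on the right, ordered by mean level. Circles are the 3 miR-9-3p AAV libraries and squares the 3 control AAV libraries; for Nars the circles lie at 49.2 to 50.4 FPKM and the squares at 61.1 to 70.4 FPKM.

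Levels differed widely between members. Mean FPKM, which is per length, ran from 7.8 (Qars) to 77.0 (Gars) among the cytosolic genes with a median of 20.5. It ran from 1.58 (Wars2) to 21.2 (Lars2) among the mitochondrial genes with a median of 4.36. The fewest recovered reads behind any member in any library were 91, for Pars2.

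The 6 cytosolic genes of highest level all code for free enzymes. Gars, the glycyl-tRNA synthetase, had 67.1, 72.7 and 68.6 FPKM in the miR-9-3p AAV libraries, against 89.6, 89.7 and 74.4 FPKM in the control AAV libraries. The groups did not overlap, and the log2 fold change was -0.28 (limma SE 0.11, adjusted p = 0.163). Nars, the asparaginyl-tRNA synthetase, had 50.4, 50.2 and 49.2 FPKM in the miR-9-3p AAV libraries, against 66.1, 70.4 and 61.1 FPKM in the control AAV libraries. The miR-9-3p AAV libraries were nearly equal and all lower, and the log2 fold change was -0.39 (limma SE 0.09, adjusted p = 0.0537), just outside the threshold. Sars, the seryl-tRNA synthetase, had 30.8, 33.4 and 35.4 FPKM in the miR-9-3p AAV libraries, against 47.0, 43.9 and 36.6 FPKM in the control AAV libraries. Its groups were separated by a small gap, with a log2 fold change of -0.34 (limma SE 0.12, adjusted p = 0.133).

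Aars, the alanyl-tRNA synthetase, had 26.6, 35.6 and 35.1 FPKM in the miR-9-3p AAV libraries, against 47.6, 43.9 and 30.8 FPKM in the control AAV libraries. The third control AAV library lay inside the miR-9-3p AAV range, and the log2 fold change was -0.31 (limma SE 0.20, adjusted p = 0.344). Wars, the tryptophanyl-tRNA synthetase, had 28.6, 36.1 and 35.0 FPKM in the miR-9-3p AAV libraries, against 40.6, 35.5 and 31.3 FPKM in the control AAV libraries, and the groups overlapped. Hars, the histidyl-tRNA synthetase, had 30.1, 29.9 and 31.7 FPKM in the miR-9-3p AAV libraries, against 32.4, 29.2 and 28.4 FPKM in the control AAV libraries, which also overlapped. Hars is one of the 2 cytosolic genes with a log2 fold change above 0 (0.03); Eprs is the other (0.02). The 12 free enzymes together had a median log2 fold change of -0.26, and 4 of them were separated lower.

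The 8 enzymes of the multisynthetase complex had a median log2 fold change of -0.09, and 2 of them, Iars and Rars, were separated lower. Iars, the isoleucyl-tRNA synthetase, had 18.6, 20.4 and 18.3 FPKM in the miR-9-3p AAV libraries, against 22.5, 24.3 and 22.0 FPKM in the control AAV libraries. Rars, the arginyl-tRNA synthetase, had 18.3, 16.8 and 15.1 FPKM in the miR-9-3p AAV libraries, against 19.3, 20.5 and 19.3 FPKM in the control AAV libraries. These 2 genes and Tars below were picked out after their values were seen. Mars1, the methionyl-tRNA synthetase, had the lowest log2 fold change in the complex, -0.32 (SE 0.14, limma adjusted p = 0.218), with overlapping groups. The other 5, Dars, Eprs, Kars, Lars and Qars, lay between -0.10 and 0.02.

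The free enzyme Tars, the threonyl-tRNA synthetase, had 9.65, 11.4 and 10.2 FPKM in the miR-9-3p AAV libraries, against 13.0, 13.2 and 11.5 FPKM in the control AAV libraries, a gap of little more than the rounding. Structural class divided the cytosolic genes little: the 10 class I enzymes had a median log2 fold change of -0.16 and the 10 class II enzymes one of -0.24. Eprs, which joins a class I and a class II enzyme, was counted in class I. The 12 cytosolic genes reported as ATF4 targets had a median of -0.26 with 5 separated lower. The other 8 cytosolic genes had a median of -0.10 with 1 separated lower. That list was written with results of these data known, and the difference between the 2 lists was not tested.

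**Figure D2:**
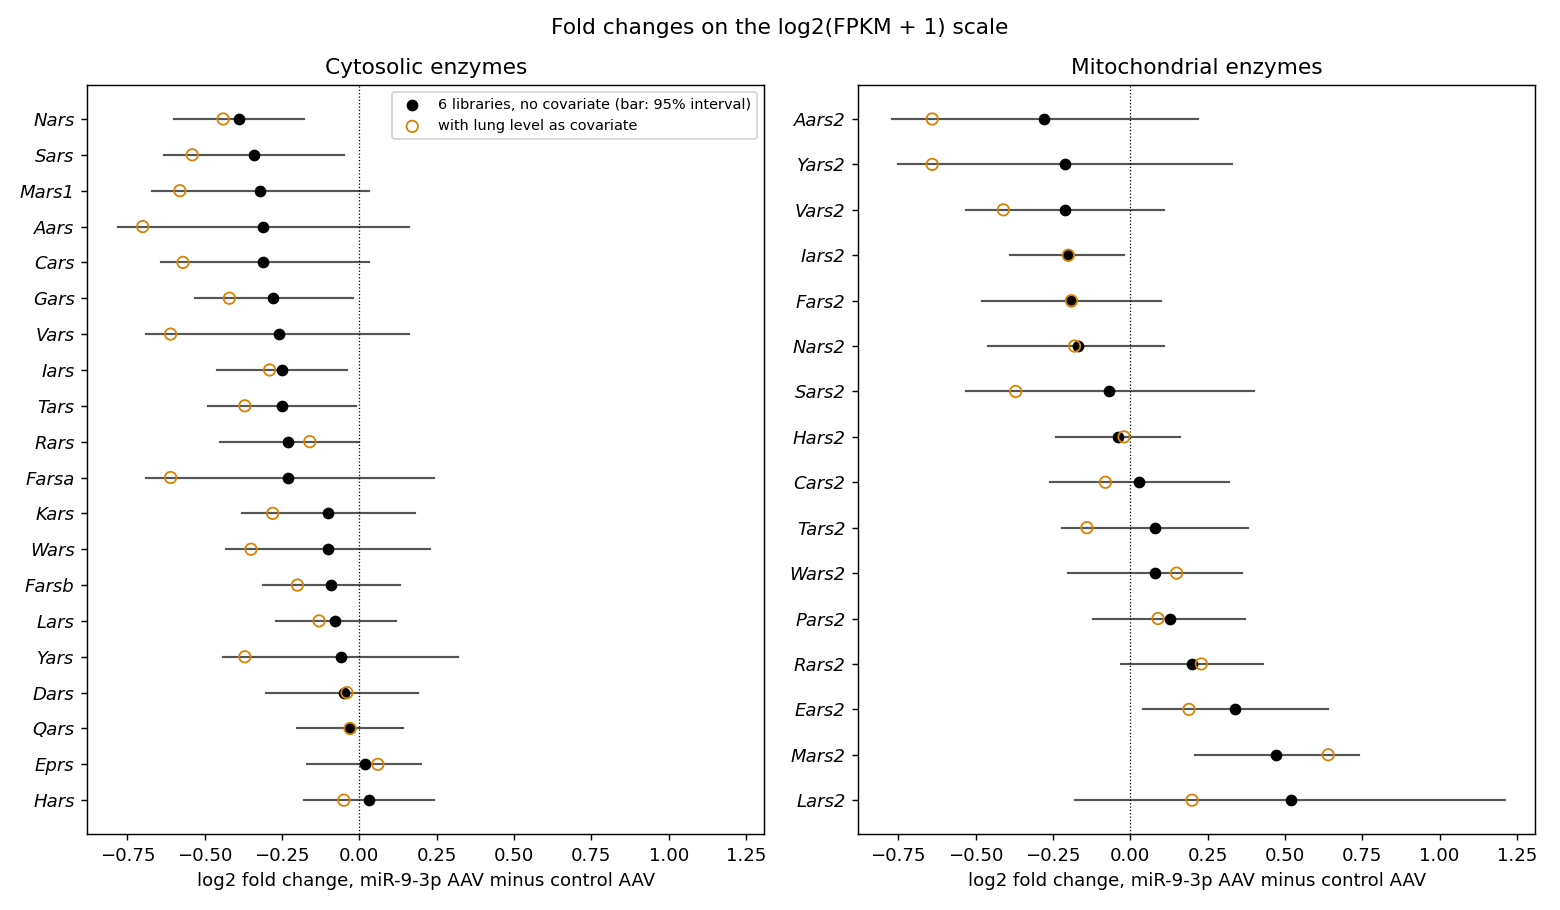
Log2 fold change (miR-9-3p AAV minus control AAV, log2(FPKM + 1) scale) of each member, cytosolic on the left and mitochondrial on the right. Filled points with 95% intervals are from the fit of 6 libraries without a covariate and open circles from the fit with lung level as covariate; 18 of 20 cytosolic filled points lie below 0, against 8 of 16 mitochondrial ones.

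Among the mitochondrial enzymes, Mars2 and Lars2 had the highest fold changes. Mars2, the mitochondrial methionyl-tRNA synthetase, had 5.09, 4.75 and 4.62 FPKM in the miR-9-3p AAV libraries, against 2.76, 3.16 and 3.70 FPKM in the control AAV libraries. Every miR-9-3p AAV library was higher, with a log2 fold change of 0.47 (limma SE 0.11, adjusted p = 0.0563). With each library's trend on exon length removed it was 0.29 (adjusted p = 0.143), and the exons of Mars2 cover 11294 bases (chr1:55237177-55248470, plus strand, GRCm38). Lars2, the mitochondrial leucyl-tRNA synthetase and the highest of the 16, had 22.4, 17.4 and 36.5 FPKM in the miR-9-3p AAV libraries, against 19.3, 19.0 and 12.6 FPKM in the control AAV libraries. The groups overlapped and the third miR-9-3p AAV library stood above the rest. Its log2 fold change was 0.52 (limma SE 0.29, adjusted p = 0.295), and 0.23 without that library.

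Ears2, the mitochondrial glutamyl-tRNA synthetase, had 2.03, 2.68 and 2.56 FPKM in the miR-9-3p AAV libraries, against 1.72, 1.89 and 1.49 FPKM in the control AAV libraries. The groups did not overlap, and the log2 fold change was 0.34 (limma SE 0.12, adjusted p = 0.144). Its exons share 0.764% of their 50-base words with Ubfd1 on the other strand, which was itself called higher (log2 fold change 0.41, limma adjusted p = 0.0346). Iars2, the mitochondrial isoleucyl-tRNA synthetase, went the other way, with 6.07, 6.52 and 6.44 FPKM in the miR-9-3p AAV libraries, against 7.08, 7.67 and 7.62 FPKM in the control AAV libraries. Its groups did not overlap (log2 fold change -0.20, SE 0.08, limma adjusted p = 0.158). Iars2 shares 22.7% of its 50-base words with other genes, mostly with its antisense neighbour Rab3gap2, whose log2 fold change was 0.22, and without a stated strand setting their reads cannot be told apart. The members with the next largest shares are Aars (13.8%, mostly with Exosc6, which is listed at 0 in every library), Fars2 (8.85%, mostly with Nrn1), Farsb (7.27%, with Sgpp2), Iars (7.15%, with Gm4849), Vars2 (6.45%, with Gm20483), Hars (5.95%, mostly with Hars2) and Cars2 (5.15%, mostly with Naxd). The values of these genes are uncertain. The shares count distinct words of the annotated transcripts and not reads, so they do not say by how much.

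The remaining mitochondrial genes of high level overlapped between the groups. Hars2, for histidine, had 9.37 to 10.5 FPKM in the miR-9-3p AAV libraries, against 9.89 to 11.0 FPKM in the control AAV libraries. Rars2, for arginine, had 9.50, 8.86 and 7.93 FPKM in the miR-9-3p AAV libraries, against 7.35, 8.03 and 7.14 FPKM in the control AAV libraries, with 1 control AAV library inside the miR-9-3p AAV range. Yars2, for tyrosine, had 3.48, 5.81 and 5.63 FPKM in the miR-9-3p AAV libraries, against 7.74, 5.24 and 4.78 FPKM in the control AAV libraries. The lowest library was thus in one group and the highest in the other. Vars2, for valine, had 3.46, 4.80 and 4.86 FPKM in the miR-9-3p AAV libraries, against 5.40, 5.33 and 4.78 FPKM in the control AAV libraries. The other 8 mitochondrial genes (Aars2, Cars2, Fars2, Nars2, Pars2, Sars2, Tars2 and Wars2) had log2 fold changes between -0.28 and 0.13. Pars2, for proline, was separated by a small margin, with 1.98 to 2.15 FPKM in the miR-9-3p AAV libraries and 1.64 to 1.96 FPKM in the control AAV libraries.

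The ratio of the compartments' levels was separated between the groups, while neither sum was. Summed over 20 genes, the cytosolic level was 453.2, 504.7 and 492.3 FPKM in the miR-9-3p AAV libraries, against 605.6, 587.5 and 499.5 FPKM in the control AAV libraries. The groups overlapped by 1 library, with means of 483.4 ± 26.9 FPKM in the miR-9-3p AAV libraries and 564.2 ± 56.7 FPKM in the control AAV libraries (SD, n = 3 each). The mitochondrial sum was 81.7, 84.6 and 102.8 FPKM in the miR-9-3p AAV libraries, against 87.4, 84.4 and 74.2 FPKM in the control AAV libraries, which overlapped. The cytosolic sum divided by the mitochondrial sum was 5.55, 5.96 and 4.79 in the miR-9-3p AAV libraries, against 6.93, 6.96 and 6.74 in the control AAV libraries, with no overlap. Without Lars2 in the mitochondrial sum, the ratio was 7.64, 7.51 and 7.43 in the miR-9-3p AAV libraries, against 8.89, 8.98 and 8.12 in the control AAV libraries. The groups still did not overlap. These sums weight each gene by its level, and no test was made of them.

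**Figure D3:**
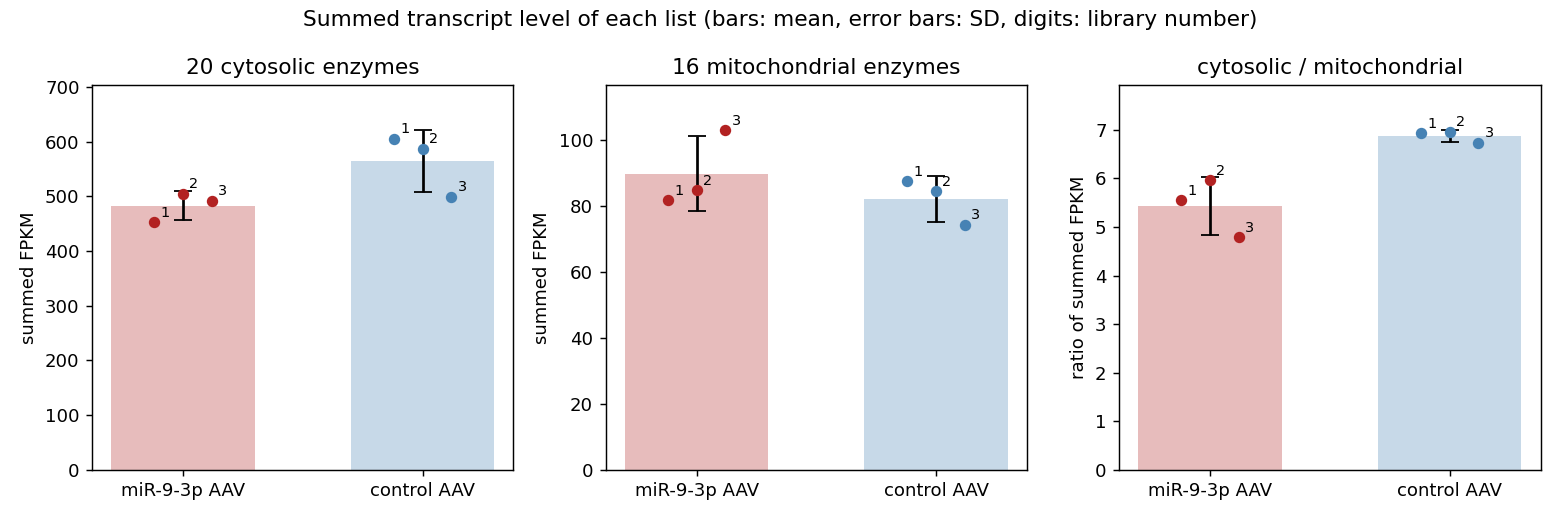
Summed FPKM of the 20 cytosolic genes (left), of the 16 mitochondrial genes (middle) and the ratio of the sums (right) in each library. Bars are group means, error bars the SD of 3 libraries and digits the library numbers; the ratio lies at 4.79 to 5.96 in the miR-9-3p AAV libraries and at 6.74 to 6.96 in the control AAV libraries.

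The members hold 13 pairs of genes whose symbols differ only in the ending that marks the mitochondrial enzyme. Phenylalanine, glutamate and proline, whose cytosolic genes (Farsa and Farsb, and Eprs) have no such partner, were not paired. The cytosolic level divided by the mitochondrial level was lower without overlap in the miR-9-3p AAV libraries for 3 of the 13 pairs, higher for 0, and overlapping for 10. No background for ratios of other gene pairs was computed, so this count is a description only. The ratio of Mars1 to Mars2 was 4.24, 5.58 and 5.55 in the miR-9-3p AAV libraries, against 12.2, 10.8 and 6.86 in the control AAV libraries. The ratio of Rars to Rars2 was 1.93, 1.90 and 1.90 in the miR-9-3p AAV libraries, against 2.62, 2.55 and 2.71 in the control AAV libraries. The arginine ratio was thus nearly equal across the miR-9-3p AAV libraries. The ratio of Tars to Tars2 was 2.16, 2.23 and 2.04 in the miR-9-3p AAV libraries, against 2.49, 2.77 and 3.07 in the control AAV libraries. For the alanine pair, the ratio of Aars to Aars2 was 9.36, 7.89 and 6.66 in the miR-9-3p AAV libraries, against 7.54, 9.07 and 6.76 in the control AAV libraries, which overlapped almost fully.

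Within each group, most cytosolic transcripts were lowest in the library with the most lung RNA. Library 1 was the lowest miR-9-3p AAV library for 13 of 20 cytosolic genes (45.4% of all tested genes), and library 3 was the lowest control AAV library for 17 of 20 (44.3% of all tested genes). Both held for 12 of 20 cytosolic genes and for 6 of 16 mitochondrial genes, against 31.1% of all tested genes. Taken singly, each also held for most mitochondrial genes, 10 of 16 for library 1 and 10 of 16 for control AAV library 3. Since the lung level was highest in a control AAV library, it was entered as a covariate, a fit that leaves 3 residual degrees of freedom and whose lung measure comes from the same libraries. With it, limma called 11 of 20 cytosolic genes lower and 0 higher, against 18.1% of all tested genes called lower and 13.4% higher. The 11 were Aars, Cars, Farsa, Gars, Mars1, Nars, Sars, Tars, Vars, Wars and Yars, of which 10 are free enzymes and Mars1 belongs to the complex. The cytosolic median was then -0.36, against -0.05 for all tested genes.

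The largest of these adjusted differences was that of Aars, at -0.70 (SE 0.07, limma adjusted p = 0.00498), against -0.31 without the covariate. Of the 16 mitochondrial genes, 3 were called lower with the covariate, Aars2 at -0.64, Yars2 at -0.64 and Vars2 at -0.41. That share was near the 18.1% of all tested genes called lower in this fit, while 13.4% were called higher. Among the mitochondrial genes Mars2 alone was called higher, at 0.64 (SE 0.09, limma adjusted p = 0.0069). With miR-9-3p AAV library 1 and control AAV library 3 left out, the ones with the most lung RNA, 2 libraries against 2 remained, and limma called Mars1, Nars and Sars lower and Mars2 higher, while 5.99% of all tested genes were called lower and 5.53% higher.

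Inside each lung set the direction of the cytosolic genes was alike. The median cytosolic difference was -0.25 in the set with miR-9-3p AAV library 1 and control AAV libraries 2 and 3, and -0.23 in the set with miR-9-3p AAV libraries 2 and 3 and control AAV library 1. All tested genes had medians of -0.05 and -0.04 in these sets. The same 18 cytosolic genes were below 0 in both sets, Eprs was above 0 in both, and Hars changed sign. Of all 14229 tested genes, 6394 were below 0 in both sets and 5026 above 0 in both. The mitochondrial medians were -0.02 in both sets. Each set has 1 library on one side, so these values have no test. Leaving out miR-9-3p AAV library 1, the cytosolic median was -0.12, and leaving out control AAV library 1 it was -0.10, so the size of the shift rests in part on these 2 libraries.

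**Figure D4:**
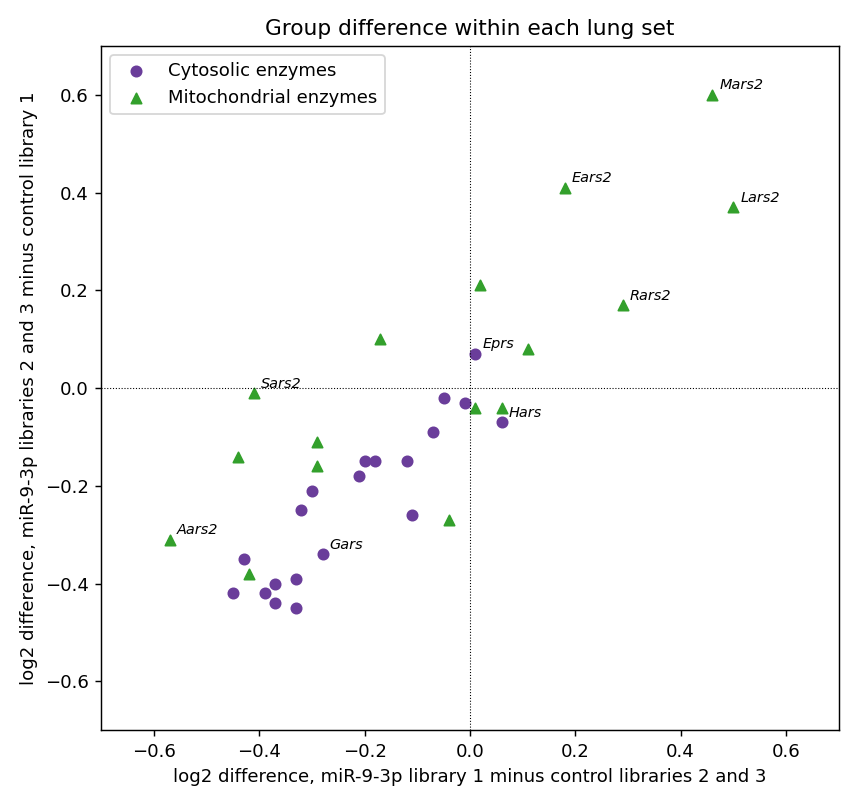
Difference in mean log2(FPKM + 1) within the 2 lung sets, miR-9-3p AAV minus control AAV, for each member. The horizontal axis is miR-9-3p AAV library 1 minus control AAV libraries 2 and 3, and the vertical axis is miR-9-3p AAV libraries 2 and 3 minus control AAV library 1; 18 of 20 cytosolic genes (circles) lie below 0 on both axes, and mitochondrial genes (triangles) spread over both signs.

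The promoters shown above can be set beside these values. The 5 genes with a CARE core had log2 fold changes of -0.31 (Aars), -0.28 (Gars), -0.25 (Iars), -0.25 (Tars) and -0.06 (Yars). Groups were separated for Gars, Iars and Tars, and overlapped for Aars and Yars. The lowest fold changes also included genes with no window in the promoter table, such as Nars and Cars, and genes with a window that held no match, Sars (-0.34) and Mars1 (-0.32).

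Matches to the miR-9-3p seed in 3′ UTRs were held by members on both sides of 0. In the longest annotated 3′ UTR of each gene (GENCODE M21, GRCm38), a match to bases 2 to 8, or to bases 2 to 7 followed by A, was found for 3 of 20 cytosolic genes (Aars, Sars and Tars) and 2 of 16 mitochondrial genes (Mars2 and Yars2). Of 12200 tested genes with such a UTR, 21.2% had a match. The log2 fold changes of Aars (-0.31), Sars (-0.34), Tars (-0.25) and Yars2 (-0.21) were below 0. Mars2, the member with 2 matches, was higher in every miR-9-3p AAV library (0.47). Its 3′ UTR has 9470 bases, against a median of 1584 for the mitochondrial genes. Whether the matches bear on these levels was not tested. The sites are shown with the letters that pair with the seed, and the A after them, in capitals.
Aars: cacccctactGCTTTAAcctaaagtag
Sars: ttcactagccAGCTTTActctctacct
Tars: tggggaagacAGCTTTAActtaaaacag
Mars2, first site: aaatcctatgAGCTTTAAtaagtgcaaa
Mars2, second site: tttggtttagGCTTTAAtaaatggtaa
Yars2: tcctggtagtGCTTTAAtgtaactcat

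Genes that act beside the synthetases were examined as lists. Of the 3 scaffold proteins of the complex, 0 were called. Eef1e1 had 11.2, 11.8 and 12.1 FPKM in the miR-9-3p AAV libraries, against 12.8, 12.2 and 10.9 FPKM in the control AAV libraries, and Aimp2 overlapped likewise. Aimp1, picked out after its values were seen, had 6.64, 6.40 and 6.59 FPKM in the miR-9-3p AAV libraries, against 8.52, 8.26 and 7.95 FPKM in the control AAV libraries. Its groups did not overlap, and its log2 fold change was -0.29 (limma adjusted p = 0.0676).

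The lists of later steps held 0 called genes each in the fit without a covariate. Among 6 cytosolic elongation factors the median log2 fold change was -0.03, with Eef1a1, which carries charged tRNA to the ribosome, at -0.14 and Eef2, the translocation factor, at -0.06. Among 8 genes of mitochondrial tRNA charging and elongation the median was 0.01, with the elongation factor Tufm at -0.17 and Gatc, a subunit of the enzyme that makes glutaminyl-tRNA, at 0.11. Among 6 tested genes of tRNA editing, export and synthetase-like proteins the median was -0.05, with Xpot, the tRNA exporter, at 0.02 and Trnt1, which adds the CCA end to tRNA, at -0.12. The largest difference in that list, picked out after its values were seen, was 0.28, for Dtd1, a deacylase that clears D-amino acids from tRNA. Among 4 genes of selenocysteine tRNA and decoding the median was 0.03, with Secisbp2 at -0.05 and Eefsec at -0.12. At an unadjusted p under 0.05, 3 genes of these lists and the scaffold list were lower (Aimp1, Eef1b2 and Gatb) and 0 were higher. The shares over all tested genes were 12.8% lower and 14% higher. Limma-voom called 0 of the genes in these lists. With lung level as covariate, limma called 5 of the 27 tested genes in these 5 lists lower and 0 higher. These were Aimp1, Eef1a2, Gatb, Tufm and Tsfm. The share lower was near that of all tested genes in this fit (18.1% lower, 13.4% higher). Eef1a2, a neuronal form of the elongation factor, was then at -0.58 (limma adjusted p = 0.0056), and the elongation factor median was -0.23 with 6 of 6 below 0. Over all tested genes the median in this fit was -0.05, with 7836 of 14229 below 0.

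The ATF4 pathway list had larger differences than the synthetases in the same libraries. Of its 12 genes, 5 were called lower, against 2.4% of all tested genes, and the median log2 fold change was -0.66. Groups were separated lower for 9 of the 12, against 16.7% of all tested genes. This list was also chosen with earlier results of these data known. Its excess over these shares is a description only and was not tested. Atf4 itself had 87.1, 92.6 and 84.0 FPKM in the miR-9-3p AAV libraries, against 175.1, 169.8 and 142.7 FPKM in the control AAV libraries, and fell by 0.87 on the log2 scale (limma adjusted p = 0.0212). Chac1 fell by 1.45, Trib3 by 1.31, Mthfd2 by 1.05 and Psat1 by 0.67 on that scale. Groups overlapped for Atf3 (-0.47), Ddit4 (-0.28) and Slc7a11 (-0.08). With lung level as covariate, Atf3 was at 0.05 and Slc7a11 at 0.06.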

How the data were processed

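RNA sequencing of 6 libraries was analysed, 3 of miR-9-3p AAV and 3 of control AAV, grouped by title. The authors deposited 1 table of FPKM values with 1 column per library, per the file headers. The submitters' processing notes name HISAT2, Cufflinks 2.2.1 and mm10; the sources used here give no annotation, strand setting or filter. Because FPKM is relative to a library's total, 1 abundant transcript lowers all other values. Symbols came from GENCODE M21; 3281 of 55416 rows had none and took up to 1.2% of a library's summed FPKM. FPKM steps gave whole reads, within 0.01, for 98.05% to 98.14% of values above 0.

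Values were tested as log2(FPKM + 1), which understates low genes' changes. The test was limma 3.58.1 under R 4.3.3 (intensity trend, no covariates, Benjamini-Hochberg adjustment, threshold 0.05), on the 14229 genes that reached 1 FPKM in 3 libraries or more. The script was checked on simulated data. The rule named the 6 members of highest mean in each compartment and every called gene, up to 4 per other list, or with none called the 2 of highest mean; others were named after their values were seen. The members and lists were chosen with earlier results of these data known. Alternatives covered scaling, filters, pseudocount, weights, length, lung level and left-out libraries. Promoters and the miRNA came from RefSeq, 3′ UTRs from GENCODE M21 transcripts. Members sharing 50-base words with an overlapping gene are uncertain where the counting could split reads.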

Additional observations from a re-analysis of the deposited data

How the results depend on the processing

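The count of cytosolic genes called lower, 0 in the fit reported, was 1 with a filter of 5 FPKM, 1 with voom on recovered reads, 12 with array quality weights, 11 with lung level as covariate, 3 with lung set as a batch term and 3 without the library richest in lung RNA in each group. It was 0 to 1 when 1 library was left out, the 1 being without control AAV library 3. The count of mitochondrial genes called lower, likewise 0, was 4 with array quality weights, 3 with lung level and 2 with lung set. The count called higher was 1 with quantile normalization, 4 with array quality weights, 1 with lung level, 1 with lung set and 1 without the highest lung libraries, and 0 to 1 with a library left out. Array quality weights called 4450 genes higher and 4516 lower of all 14229, against 554 and 341 in the fit reported, and their estimation stopped before converging. Over all genes the counts higher and lower were 1910 and 2578 with lung level, 1410 and 1243 with lung set, 787 and 853 without the highest lung libraries, 270 and 194 with the exon length trend removed and 109 and 67 with no filter. Those counts were 502 and 317 with a filter of 5 FPKM, 591 and 266 with quantile normalization and 541 and 425 with voom. The cytosolic median was -0.36 with lung level and -0.26 to -0.10 with a library left out.

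Replicate numbers did not pair the libraries: correlations of same-numbered deviations were -0.649, 0.111 and -0.535. With the replicate block, 0 members and 0 genes were called, and the cytosolic median was -0.23. Leaving out 1 library gave 0 calls among all genes, except without control AAV library 3 (459 higher and 287 lower).

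Some members changed sign, most of them from values near 0; Fars2 (-0.19) and Yars2 (-0.21) did not start near 0. Log2 fold changes turned to -0.07 (Eprs), 0.01 (Kars), 0.002 (Wars), 0.03 (Fars2), 0.15 (Sars2) and 0.09 (Yars2) with array quality weights, and to -0.003 (Eprs) with voom. They turned to -0.28 (Eprs), 0.04 (Farsb), -0.06 (Cars2), 0.0044 (Hars2) and 0.02 (Sars2) with the exon length trend removed. With lung level they turned to -0.05 (Hars), -0.08 (Cars2) and -0.14 (Tars2), and with lung set to -0.0044 (Hars) and -0.03 (Cars2). Without the highest lung libraries Sars2 was 0.10. With 1 library left out the ranges were -0.10 to 0.03 (Dars), -0.02 to 0.05 (Eprs), -0.0094 to 0.08 (Hars), -0.19 to 0.05 (Yars), -0.05 to 0.13 (Cars2), -0.07 to 0.002 (Hars2), -0.20 to 0.14 (Sars2) and -0.03 to 0.16 (Tars2). The causes were not tested. Depth limits the lowest mitochondrial genes, down to 91 reads in a library for Pars2.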
